A study of Mus musculus with 2 samples.

Results

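The 10 chemokine genes described here, Cxcl1, Cxcl9, Cxcl10, Cxcl12, Cxcl13, Cxcl14, Ccl2, Ccl5, Ccl6 and Ccl9, were taken as the probes on both arrays whose RefSeq accession belongs to one of these genes. They made up 12 of 55681 probes and 10 of 20270 named genes, and 21 spots per array. The other 28 chemokine genes searched gave few signals and are described further on. Liver RNA came from wild-type (WT) C57B6J mice and from CREBH KO mice of the same background, either fed ad lib or fasted for 24 h. RNA was pooled within each of these 4 groups, and each pool was measured once, WT in the Cy3 channel and KO in the Cy5 channel of 1 array per feeding state. The number, age and sex of the mice in a pool, and how the KO allele was made, are not given in the sources used here. CREBH, encoded by Creb3l3, is a liver transcription factor anchored in the endoplasmic reticulum, from which cleavage releases it to the nucleus in fasting and stress.

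Chemokines are small secreted proteins that attract leukocytes through G protein-coupled receptors, and they are divided into CXC and CC families by the spacing of the first cysteines. In liver, hepatocytes, Kupffer cells, endothelium and stellate cells can all release them. Some, such as Cxcl12, are made steadily, whereas others, such as Cxcl1, Cxcl9, Cxcl10 and Ccl2, are induced by inflammatory cytokines and interferons. A bulk liver RNA signal does not say which cell made the transcript, and fewer cells of a type and less RNA per cell cannot be told apart.

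All 10 genes were well above background in the fed WT, fasted WT and fasted KO pools, and 9 were in the fed KO pool, where Cxcl13 was not. Signals are given on a normalized intensity scale, linear unless called log2, and single genes are compared only between pools of the same probe. The summed signals of cell markers add different probes, so they mostly follow the brightest ones. With 1 pool per group no difference has a replicate check and no p-value is given. The size of a difference is described, at least 2-fold (log2 of 1) being the mark. Ratios of probes printed 10 times had a median SD between spots of 0.09 (fed) and 0.08 (fasted) on the log2 scale, a spread that holds no difference between mice or labellings. Creb3l3 itself was lower in KO, by a log2 ratio of -0.88 fed and -2.07 fasted. If each array was instead centred on all its spots, the fed ratio was 0.31, against a median of all genes of 0.78.

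The highest pool differed between genes. It was fed WT for Cxcl9, Cxcl10, Ccl5 and Ccl9, and fasted KO for Cxcl1, Ccl2 and Ccl6. It was fed KO for Cxcl14, and fasted WT for Cxcl13 and the brighter probe of Cxcl12. Fasted liver had a KO over WT ratio at least 2-fold above that of fed liver for Cxcl1, Cxcl9, Cxcl10, Ccl2 and Ccl9, that is for 5 of 9 measured members, and none was lower by that much, though with arrays centred on all spots Cxcl14 was at -1.03. Of all 11289 measured genes, 1.37% were 2-fold apart in this difference, 0.771% higher and 0.602% lower. The 9 members had a median of 1.12, against -0.01 over all genes. These genes were proposed with results of the same arrays in view, so the count describes them and is no test. KO carried Cy5 on both arrays, and each feeding state was 1 array, so feeding and array cannot be told apart.

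**Figure D1:**
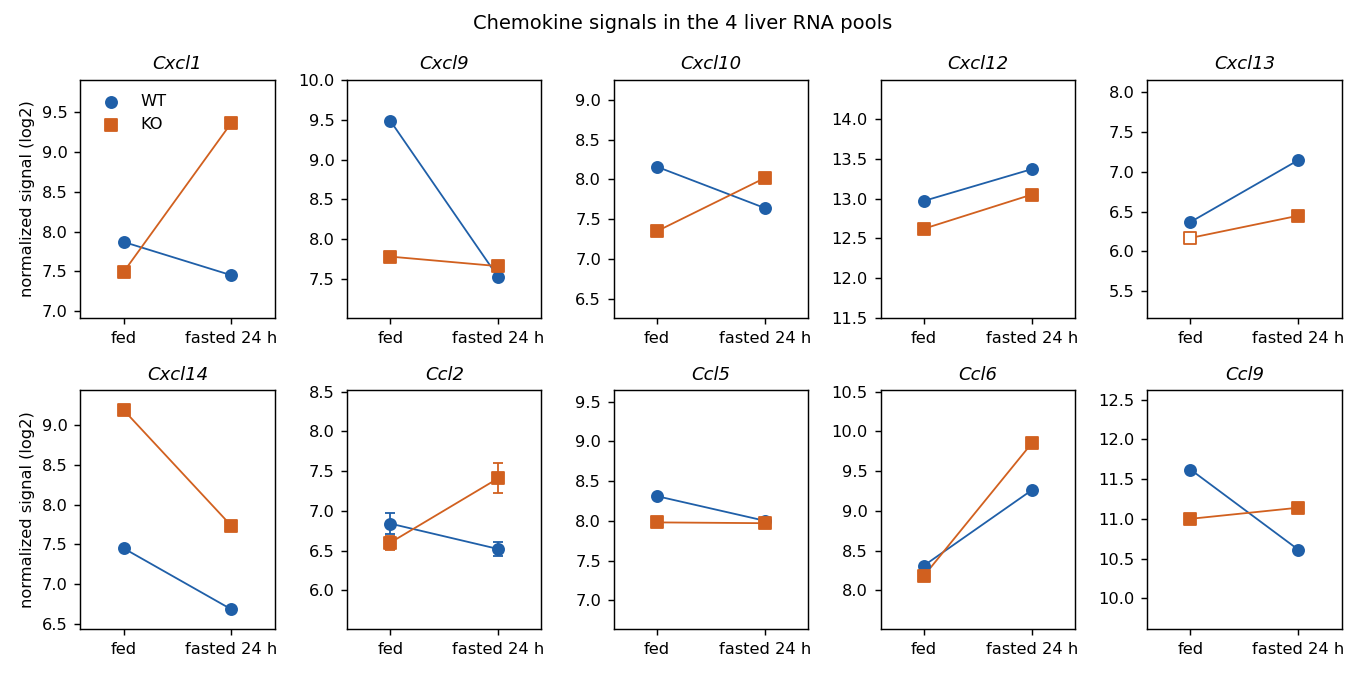
Normalized log2 signal of each chemokine (y axis, 1 probe per gene, all panels spanning 3 log2 units) in fed and fasted liver (x axis), with circles for WT and squares for KO pools. An open square marks a signal not well above background, and bars on Ccl2 are the SD over spots of its probe. Cxcl9 is highest in the fed WT pool, Cxcl1 and Ccl2 in the fasted KO pool and Cxcl14 in the fed KO pool.

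The stretches of 250 bases before the annotated start are shown for Cxcl1, Cxcl9, Cxcl10 and Ccl9, the members with a promoter entry that were at least 2-fold higher in the difference of ratios, and for Cxcl14, which lay the other way. Sequences are those of RefSeq on GRCm38.p6, which listed promoters for 8 of the 10 members and none for Ccl2 and Ccl5. Capitals mark matches, on either strand, to 5 motifs. They are the interferon gamma-activated sequence GAS, spelled TTCNNNGAA, the core of the interferon-stimulated element ISRE, the κB site, the CRE core TGACGT and the box TATAAA. The ISRE core searched was GAAA repeated after any 2 bases. The κB site was GGGA, any 2 bases and TTCC, or GGG, any 2 bases and TTTCC.
Cxcl1 (chr5:90890995-90891244, plus strand): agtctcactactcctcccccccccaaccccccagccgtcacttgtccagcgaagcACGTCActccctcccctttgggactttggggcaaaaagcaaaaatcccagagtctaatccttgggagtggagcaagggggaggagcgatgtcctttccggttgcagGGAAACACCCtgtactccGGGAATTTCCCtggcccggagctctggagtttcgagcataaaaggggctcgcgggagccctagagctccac
Cxcl9 (chr5:92328080-92328329, minus strand): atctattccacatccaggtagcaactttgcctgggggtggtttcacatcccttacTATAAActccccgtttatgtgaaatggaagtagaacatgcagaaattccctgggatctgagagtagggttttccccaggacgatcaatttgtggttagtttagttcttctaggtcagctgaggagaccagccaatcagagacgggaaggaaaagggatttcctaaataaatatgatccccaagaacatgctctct
Cxcl10 (chr5:92348890-92349139, minus strand): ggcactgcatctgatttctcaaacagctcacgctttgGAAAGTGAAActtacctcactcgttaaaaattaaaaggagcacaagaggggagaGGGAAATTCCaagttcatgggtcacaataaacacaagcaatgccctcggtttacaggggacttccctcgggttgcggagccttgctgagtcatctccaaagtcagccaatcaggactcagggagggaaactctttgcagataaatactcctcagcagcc
Ccl9 (chr11:83578637-83578886, minus strand): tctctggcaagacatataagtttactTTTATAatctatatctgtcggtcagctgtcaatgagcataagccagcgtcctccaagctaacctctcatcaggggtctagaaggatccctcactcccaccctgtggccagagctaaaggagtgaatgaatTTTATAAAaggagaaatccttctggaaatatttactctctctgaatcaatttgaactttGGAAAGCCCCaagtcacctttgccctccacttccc
Cxcl14 (chr13:56296552-56296801, minus strand): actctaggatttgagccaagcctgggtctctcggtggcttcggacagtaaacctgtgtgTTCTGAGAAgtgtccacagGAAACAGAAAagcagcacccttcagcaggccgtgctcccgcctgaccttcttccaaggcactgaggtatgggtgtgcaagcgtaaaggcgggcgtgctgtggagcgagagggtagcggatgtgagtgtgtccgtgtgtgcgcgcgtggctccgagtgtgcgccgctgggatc
Cxcl1 held overlapping κB matches, 1 on each strand, from 71 to 61 bases before the start. Another κB match lay from 89 to 80 bases and a CRE match from 195 to 190 bases before the start. Cxcl10 held an ISRE core from 213 to 204 bases and a κB match from 159 to 150 bases before the start. Ccl9 held a κB match from 35 to 26 bases before the start, and TATA matches, a pair of which overlap. In Cxcl9 only a TATA match, 195 to 190 bases before the start, was found. Cxcl14 held a GAS match from 191 to 183 bases and an ISRE core from 172 to 163 bases before the start. Of the 8 member promoters, 3 held κB, 2 the ISRE core, 1 GAS, 1 CRE and 3 TATA. Among all 32851 promoters of the same length the shares were 2.26%, 2.98%, 7.02%, 6.47% and 12.4%. A match is a string of letters and not a shown binding site.

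Cxcl1, the mouse counterpart of the GRO chemokines and an attractant of neutrophils through CXCR2, had signals of 234 in fed WT, 180 in fed KO, 175 in fasted WT and 663 in fasted KO. The fasted KO pool was high and the other 3 lay close together. The fasted KO over WT ratio was 1.92 on the log2 scale, 3.78-fold, and 7 of 12260 measured genes had a higher ratio. In the fed state it was -0.38, and the sign of that small difference turned (0.20) with arrays centred on all spots. The median of all genes was then 0.78. Between feeding states Cxcl1 was 3.69-fold higher in fasted KO than in fed KO liver, whereas the fasted over fed log2 ratio in WT was -0.42. The difference of ratios was 2.30, and ranged from 2.30 to 2.98 over 8 processing alternatives. Not all of these are separate checks. Leaving out the filter on dim probes or averaging probes cannot change a measured gene with a single probe. The authors' deposited value table nearly repeats the scanner-processed ratios. The raw fasted spot read 114 in Cy3 (WT) over a local background of 23, and 1115 in Cy5 (KO) over 71.

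Ccl2, which calls monocytes through CCR2, had a probe printed 10 times, so its technical spread was measured. The means over spots were 6.84 ± 0.13 (SD, n = 8 spots) in fed WT and 6.60 ± 0.09 (n = 8) in fed KO on the log2 scale. In the fasted pools they were 6.52 ± 0.09 (n = 10) in WT and 7.41 ± 0.19 (n = 10) in KO. Fasted KO was the highest pool, and none of its spots, from 7.19 to 7.63, overlapped those of the other pools. The fasted KO over WT log2 ratio was 0.88 ± 0.15 (SD over 10 spots), 1.84-fold, short of 2-fold. It ranged from 0.70 to 1.92 over 8 alternatives and was at least 2-fold in 5 of them. These 5 include both the scanner-processed signals and the deposited value table, which hold nearly the same ratios. All 10 spots were above 0 and 2 reached 2-fold. In the fed state all 8 spots not marked as outliers by the scanner software were below 0, with a mean of -0.24 ± 0.11, and this mean was 0.02 with arrays centred on all spots. The median of all genes was then 0.78. Fasted over fed, the log2 ratio was 0.80 in KO and -0.32 in WT. The difference of ratios was 1.12, 2.17-fold, from the probe means. It ranged up to 2.69 with other processing, and was 1.60 with an offset of 16 in place of 50 added to the signals.

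**Figure D2:**
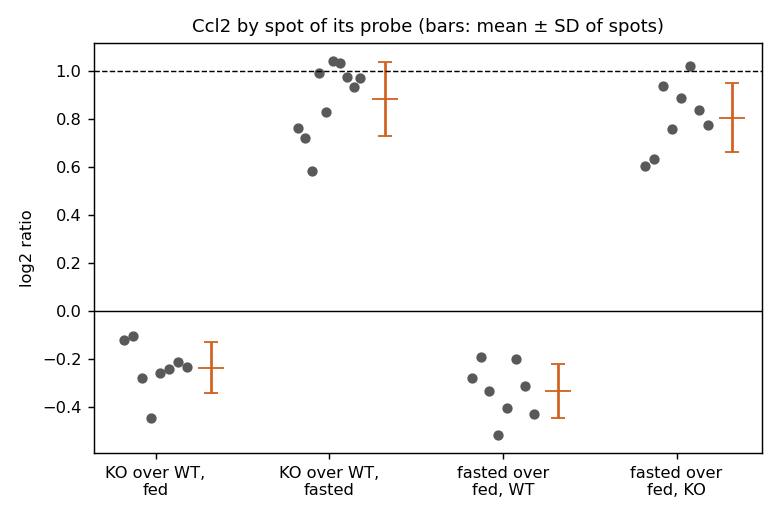
Log2 ratios of Ccl2 (y axis) for each usable spot of its probe (dots) in 4 comparisons (x axis), with the mean and SD of spots beside them and a dashed line at 2-fold. The 10 fasted KO over WT spots run from 0.58 to 1.04 and the 8 fed spots from -0.44 to -0.10. Spots repeat the printing of 1 probe on 1 array and are not biological replicates.

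Cxcl9 and Cxcl10 bind CXCR3 on T and NK cells and are classical products of interferon signalling. Their genes lie close together on chromosome 5, separated by Art3 alone among protein-coding genes of the RefSeq table. Cxcl9 had signals of 719 in fed WT, 220 in fed KO, 183 in fasted WT and 202 in fasted KO. Fed WT was high and the other 3 pools were nearly level. The fed KO over WT ratio was -1.71, 3.26-fold lower, and 11 of 11376 measured genes were lower still. The fasted ratio was 0.14. Fasting went with a 3.93-fold lower signal in WT (log2 -1.97), against -0.13 in KO. A second Cxcl9 probe ran the same way, at 310, 131, 128 and 141 in the same order of pools. Its fed ratio was -1.24 and its fasted ratio 0.14. With arrays centred on all spots the fed ratio of the first probe was -0.92, under 2-fold, against a median of all genes of 0.78.

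Cxcl10 had signals of 285 in fed WT, 163 in fed KO, 200 in fasted WT and 260 in fasted KO. Its WT pool was above KO when fed and below it when fasted, so the pools of the genotypes overlapped. The KO over WT log2 ratios were -0.80 and 0.38, both under 2-fold, and the difference of ratios was 1.18, 2.27-fold. Fed, 72 of 11376 genes had a lower ratio. Over the 8 alternatives the difference stayed at or above 1.09, and the fed ratio ran from -1.16 to -0.20. Fasted over fed, Cxcl10 was at -0.51 in WT and 0.67 in KO, each under 2-fold.

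**Figure D3:**
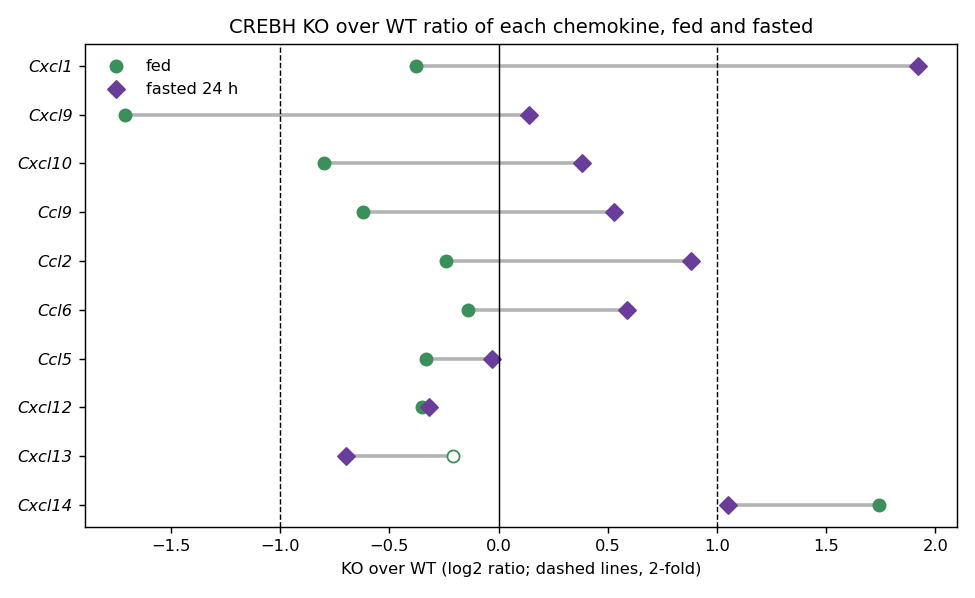
KO over WT log2 ratio (x axis) of each chemokine (y axis, ordered by the fasted minus fed difference), with circles for fed and diamonds for fasted liver and dashed lines at 2-fold. Cxcl1 runs from -0.38 fed to 1.92 fasted and Cxcl9 from -1.71 to 0.14. Cxcl14 is past 2-fold on the higher side in both states, and the open circle of Cxcl13 marks a KO signal not well above background.

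Ccl9 and Ccl6 are CC chemokines of rodents that act through CCR1 and are made by myeloid cells. With Ccl5 they are neighbours on chromosome 11, in the order Ccl5, Ccl9, Ccl6. Ccl9 had signals of 3150 in fed WT, 2050 in fed KO, 1560 in fasted WT and 2250 in fasted KO. Fed WT was the highest pool and fasted WT the lowest, with both KO pools between them. Its KO over WT log2 ratios were -0.62 fed and 0.53 fasted, neither 2-fold, and their difference was 1.15. That difference fell to 0.87 with arrays centred on all spots, against a median of all genes of -0.17. The fed ratio then read 0.42, against a median of all genes of 0.78. Fasted WT was 2.02-fold below fed WT, and fasted over fed KO was 0.13 on the log2 scale. The WT ratio, -1.02, was at least 2-fold in 5 of 8 alternatives, and was -0.88 and -0.98 with the other centrings and -0.38 without normalization between arrays. Among those 5 are the lack of a filter and the averaging of probes, which cannot change it.

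Ccl6 followed another course than its neighbour. Its signals were 318 in fed WT, 289 in fed KO, 614 in fasted WT and 924 in fasted KO. Both fasted pools were above both fed pools. Fasted KO was 3.19-fold above fed KO (log2 1.68) and fasted WT 1.93-fold above fed WT. The KO over WT log2 ratio was -0.14 fed and 0.59 fasted. Ccl5, also called RANTES, which attracts T cells and monocytes, had signals of 318, 252, 256 and 250 in fed WT, fed KO, fasted WT and fasted KO. Fed WT was the highest by a small margin, and the KO over WT log2 ratios were -0.33 fed and -0.03 fasted.

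Cxcl14, a chemokine of epithelia whose receptor is not settled, had signals of 174 in fed WT, 584 in fed KO, 102 in fasted WT and 212 in fasted KO. In each feeding state KO was above WT, and in each genotype fasted was below fed. The KO over WT ratio was 1.74 on the log2 scale when fed, 3.35-fold, with 3 of 11376 genes higher, and 1.05 when fasted, 2.08-fold, with 41 of 12260 higher. Fasted over fed it was -1.46 in KO and -0.77 in WT. It has a single probe, and without a dye swap dye and genotype cannot be told apart. The fasted ratio lies near the mark: it was 0.94 in one of the alternatives, the centring on spots well above background, and at least 2-fold in the other 7. Of those 7, leaving out the filter and averaging probes cannot move it, and the value table nearly repeats the scanner-processed ratio.

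Cxcl12, the steadily made ligand of CXCR4 and ACKR3, gave signals of 8030 in fed WT, 6310 in fed KO, 10600 in fasted WT and 8460 in fasted KO from its brighter probe. KO was below WT in both states, by log2 ratios of -0.35 and -0.32, whereas a second probe, annotated with another Cxcl12 transcript, gave 0.00 and 0.01. With arrays centred on all spots the brighter probe read 0.79 and 0.59, against medians of all genes of 0.78 and 0.57. Both probes had fasted above fed, by 0.40 and 0.49 in WT and by 0.42 and 0.50 in KO. Cxcl13, which guides B cells through CXCR5, was dim, at 83.0 in fed WT, 71.9 in fed KO, 142 in fasted WT and 87.6 in fasted KO. Fasted WT was the highest pool. The fasted KO over WT log2 ratio was -0.70, 1.62-fold lower, and -1.25 with the scanner software's processed signals. In the fed state KO was not well above background. Read without the filter KO was 1.15-fold lower, which sets no least size for the difference.

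Counted by comparison, 2 of 9 measured members were 2-fold apart between genotypes in fed liver, Cxcl14 higher and Cxcl9 lower, where 0.554% of 11376 measured genes were, 0.158% higher and 0.396% lower. Of these 9, 8 had ratios below 0, with a median of -0.35 against 0.01 over all genes. With arrays centred on all spots 7 of 9 were above 0, Cxcl14 among them as before, though 7 of 9 were below the median of all genes. In fasted liver 2 of 10 were 2-fold apart, Cxcl1 and Cxcl14, both higher in KO, where 0.791% of 12260 genes were, 0.359% higher and 0.432% lower. Their median was 0.46 and 7 of 10 were above 0, as against 9 of 10 with either centring. From fed to fasted WT liver 2 of 10 were 2-fold apart, Cxcl9 and Ccl9, both lower, beside 4.33% of 11439 genes, 2.28% higher and 2.05% lower. In KO liver 3 of 9 were, Cxcl1 and Ccl6 higher and Cxcl14 lower, beside 4.56% of 11784 genes, 2.42% higher and 2.14% lower. The medians of the members were -0.37 in WT and 0.42 in KO, and the WT median was -0.00 without normalization between arrays, when all genes had a median of 0.46. The fasting comparisons and the genotype comparisons share the same 4 pools and are not separate evidence.

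**Figure D4:**
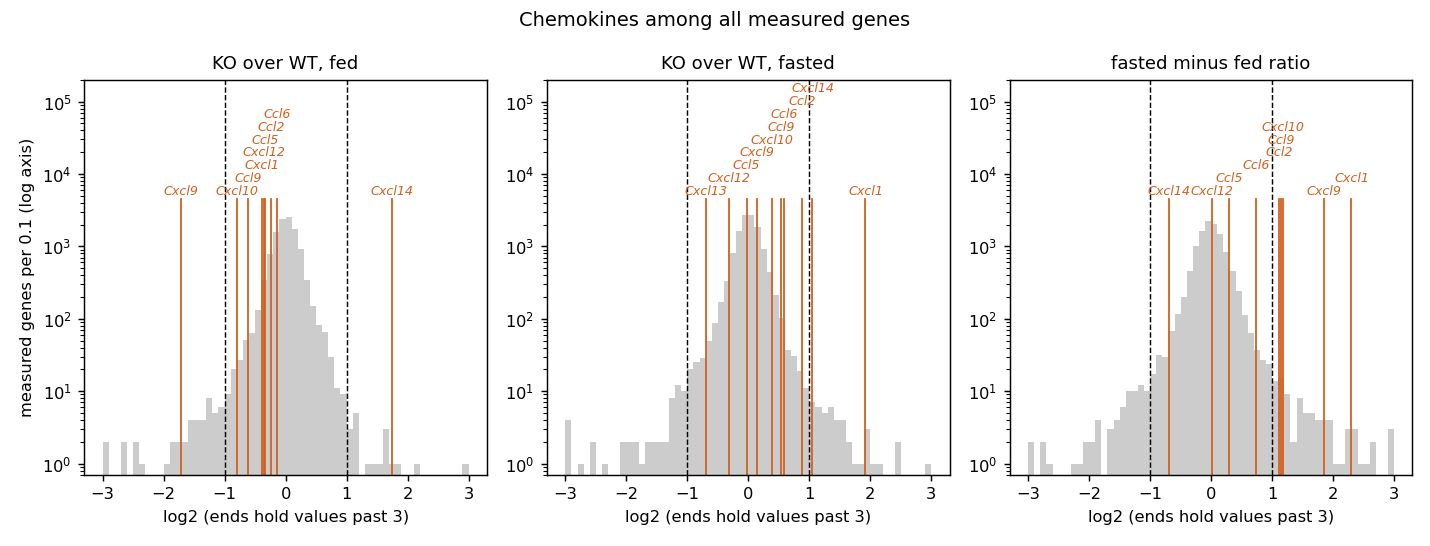
Distribution of log2 values of all measured genes (grey bars, number of genes per 0.1 on a log axis) in 3 comparisons (panels), with the chemokines as vertical lines and dashed lines at 2-fold. In the fasted minus fed ratio 5 chemokines lie above 1, Cxcl1 furthest at 2.30, and Cxcl14 is lowest at -0.69.

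The other chemokines were mostly too dim to read. Of 28 such genes 26 had a named probe, and 7 were well above background in all 4 pools: Cxcl16, Pf4, Cx3cl1, Ccl19, Ccl24, Ccl25 and Ccl27a. None of these was 2-fold apart in any of the 5 comparisons, though 1 was in fed liver with arrays centred on all spots. Their KO over WT log2 ratios ran from -0.22 to 0.22 fed and from -0.16 to 0.18 fasted. Ccl27a had a fasted over fed log2 ratio of -0.70 in WT. Ccl25, the ligand of CCR9, had a fed KO over WT ratio of 0.22 and Cx3cl1, the ligand of CX3CR1, one of -0.22. Cxcl2 and Cxcl3, which share CXCR2 with Cxcl1, and Ccl7 and Ccl12, which share CCR2 with Ccl2, were not well above background in any pool, so whether they moved with Cxcl1 and Ccl2 was not detectable. Cxcl11, the third ligand of CXCR3, had no named probe.

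Among 23 chemokine receptors 6 were measured in every pool, and no receptor was 2-fold apart in any comparison, though 1 was in fed liver and 4 were between KO pools with scanner-processed signals. The receptors of the members were dim. Cxcr2, Cxcr4, Cxcr5, Ccr1, Ccr2 and Ackr3 were not well above background in any pool. Cxcr3 was above it in all but the fed KO pool, with a fasted KO over WT log2 ratio of -0.06. The largest differences with feeding among measured receptors were those of Ackr2, a scavenger of inflammatory CC chemokines, at 0.54 in WT and 0.69 in KO.

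Genes of interferon gamma signalling had 18 of 20 measured members below 0 in the fed KO over WT comparison, with a median of -0.37. Beside 0.396% of all measured genes, 2 of the 20 were at least 2-fold lower. These were Gbp3, a guanylate-binding protein (-1.35), and the immunoproteasome subunit Psmb9 (-1.20), followed by Psmb8 (-0.91) and the transcription factor gene Irf7 (-0.86). Fasted, 9 of 21 were above 0 and 12 below, none was 2-fold apart and the median was -0.07. Irf7 was the lowest there, at -0.78, and its difference of ratios was 0.08. Ifng was not well above background in any pool. In the difference of ratios 18 of 20 were above 0 and 3 reached 2-fold, Gbp3 (1.41), Gbp2 (1.04) and Psmb9, which lay at the mark. Of all measured genes 0.771% were 2-fold higher there. With arrays centred on all spots no member of the list was 2-fold lower in fed KO, where 9 of 11376 measured genes were. The list median was then 0.35, against 0.78 over all genes. With scanner-processed signals 8 members of the list were 2-fold lower, where 112 of 11376 genes were. With the latter 1.53% of all genes were 2-fold apart.

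Genes of NF-κB signalling and early inflammation had a median of -0.13 over 22 measured members in fed liver, with none 2-fold apart and the furthest, Lcn2, at -0.68. In fasted liver the median was 0.09 over 23 members, of which 15 were above 0 and 8 below. The serum amyloid gene Saa3 was 2-fold higher in KO (1.08), where 0.359% of all measured genes were. Lcn2, which encodes lipocalin 2, was at 0.81 and Tnfaip3, a feedback inhibitor of NF-κB, at 0.77. Relb was at 0.38 and the IκBα gene Nfkbia, another feedback target, at 0.09. The lowest of the list were Cebpb (-0.35) and Il1b (-0.34). In the difference of ratios 18 of 22 were above 0, and Lcn2 (1.49) was the member past 2-fold. Of all measured genes 0.771% were 2-fold higher there. Tnf and Il6 were not well above background in any pool.

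Markers of the cells that make or follow these chemokines were read beside them. The marker lists were not recomputed with other processing, so the signs of their ratios were not checked against it. With arrays centred on all spots the fed KO over WT median of all genes was 0.78. Hepatocyte genes were bright in all pools, with Alb at log2 signals of 17.15 to 17.52. Of 12 genes of Kupffer cells and macrophages 10 were measured, and all 10 were below 0 in the fed KO over WT comparison, from -0.91 (Marco) to -0.16 (Clec4f), with a median of -0.36. Their summed signal was 18809 in fed WT, 13852 in fed KO, 18274 in fasted WT and 19110 in fasted KO, so fed KO was the lowest. In the fasted comparison 6 of 10 were above 0 with a median of 0.14, and Cd163 was not well above background in any pool. In the difference of ratios, where 5 chemokines were 2-fold higher, 10 of 10 of these markers were above 0 with a median of 0.44, and Marco was 2-fold higher (1.19). Marco was at -1.05 from fed to fasted WT. Of 12 T and NK cell genes 6 were measured fed and 8 fasted, with medians of -0.10 and 0.13. Cd3e was at 0.00 and 0.19, whereas Cd4 was the lowest in both states, at -0.27 and -0.63. In the difference of ratios 4 of 6 were above 0, with a median of 0.19. Their summed signal was 4565, 4047, 5639 and 4137 in fed WT, fed KO, fasted WT and fasted KO, of which Cd4 held the most, and Cd8a, Klrb1c, Gzmb and Ncr1 were not well above background in any pool. Of 10 neutrophil genes 5 were measured fed and 6 fasted, with medians of 0.05 and -0.01. Their summed signal was 21071, 23153, 19132 and 19019 in the same order, 94.4% of it from Csf3r in fed WT, and Ngp, Mpo and Cxcr2 were not well above background in any pool. The log2 ratios ran from -0.61 (S100a9) to 0.30 (Camp) fed and from -0.17 (Retnlg) to 0.46 (S100a8) fasted, and 4 of 6 were below 0 when fasted. S100a8 was at -0.47 fed, and S100a9 at -0.01 fasted. In the difference of ratios 2 of 5 neutrophil genes were above 0, with a median of -0.08. What part these cell populations had in the chemokine ratios was not tested.

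Genes with the most similar profile over the 4 pools were sought among 11288 genes by Euclidean distance between log2 signals centred on their mean. For Cxcl9 they were H2-Eb1 of MHC class II (distance 0.31), Gvin1, an interferon-inducible GTPase (0.39), and Gm4956 (0.43), and Gvin1 and Gm4956 had fed KO over WT ratios of -1.40 and -1.20. For Cxcl1 they were the fatty acid binding protein gene Fabp4 (0.41), the retinal dehydrogenase gene Aldh1a1 (0.46) and Miox, an inositol oxygenase gene (0.52), with fasted ratios of 1.35, 1.42 and 1.47. For Cxcl14 they were the transcriptional repressor gene Bcl6 (0.53), the drug exporter gene Abcb1b (0.65) and the neurotrophin receptor gene Ntrk2 (0.86). Bcl6 had ratios of 1.14 fed and 0.75 fasted, whereas Ntrk2 was at 1.20 and -0.04. A profile of 4 values is short, and likeness over it is a description.

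**Figure D5:**
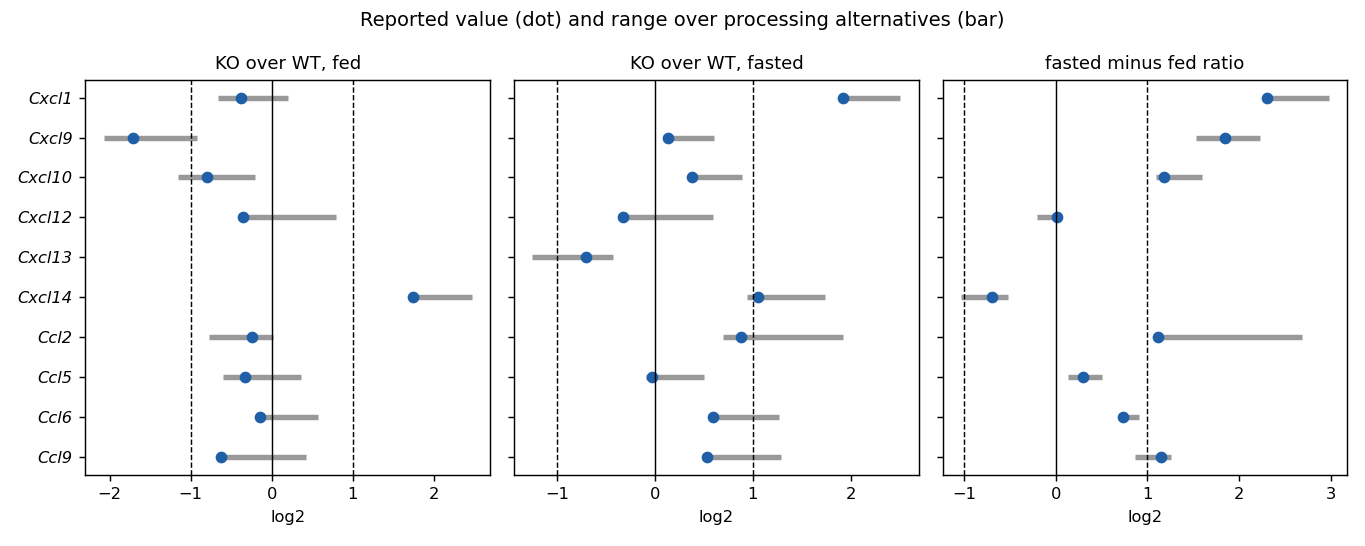
Log2 values of each chemokine (y axis) in 3 comparisons (panels) as reported (dots), with the range over 8 processing alternatives (bars) and dashed lines at 2-fold. In the fasted minus fed ratio the bars of Cxcl1, Cxcl9, Cxcl10 and Ccl2 stay at or above 1, whereas the fed bars of 6 chemokines cross 0. With arrays centred on all spots the fed median of all genes was 0.78.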

How the data were processed

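Liver RNA of 4 pools was hybridised to 2 two-colour Agilent arrays. The deposited scanner files hold spot intensity and log10 ratios made with Agilent Feature Extraction 10.10.1.1, per the file headers. The authors' deposited value table holds log2 ratios of KO over WT, with medians of 0.00, that differ from the scanner log ratio by at most 0.005. From median spot and background intensities, signals were background-corrected with limma 3.58.1 in R 4.3.3 (normexp, offset 50), normalized within arrays by loess and between arrays by Aquantile. Control spots and spots marked as outliers were left out, and spots of a probe were averaged. For genes with several probes the one with the highest mean signal over the pools was used, and the other probes of the members are given in the text. A gene counted as measured in a comparison if well above background in every pool compared, that is in at least 50 percent of its spots. No test was possible with 1 pool per group, and the number of arrays limits the precision. The procedure was run on simulated data with known changes in probes well above background, so it did not cover dim probes, and its outcome is not given here. All members are named. Of every other list, up to 4 measured genes furthest from 0 between genotypes were eligible to be named, with those past 2-fold, and receptors of the members. The members and lists were chosen with earlier results of these data known. Promoter sequences were searched over 250 bases. Relb, Nfkbia, Tnfaip3, Cebpb, Il1b, Ackr2, S100a9, Camp, Retnlg, Cd4, Cxcl2, Cxcl3, Cxcl11, Ccl7 and Ccl12 were named after their values were seen where the rule did not include them. Alternatives were other centring, background correction, offset, filters, probe averaging, no normalization between arrays, and the deposited value table. Filters and probe averaging cannot change a measured gene with a single probe, and the value table nearly repeats the scanner-processed ratios. One receptor named by the rule is not reported here.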

Additional observations from a re-analysis of the deposited data

Results flagged for a closer look

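For 6 chemokines the KO over WT ratio had opposite signs in fed and fasted liver, below 0 when fed and above 0 when fasted. The fasted minus fed difference on the log2 scale was 2.30 for Cxcl1, 1.85 for Cxcl9, 1.18 for Cxcl10, 1.15 for Ccl9, 1.12 for Ccl2 and 0.73 for Ccl6. With 1 pool per group the difference was not tested. With arrays centred on all spots the fed ratios of Cxcl1, Ccl2, Ccl6 and Ccl9 were above 0, at 0.20, 0.02, 0.57 and 0.42. All genes then had a median of 0.78, above each of these.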

How the results depend on the processing

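Of 40 recomputed counts of members 30 stayed within 1.5 times and 10 moved, and of 160 counts of the other lists 129 stayed and 31 moved. Single values and medians were held to the median SD between spots of repeated probes. Of 376 member values 197 stayed within it and 179 moved. Of 40 member medians 24 stayed and 16 moved, and of 160 medians of the other lists 93 stayed and 67 moved. Leaving out the filter or averaging probes cannot change a measured member with a single probe, and 8 members have 1 probe. The 197 values that stayed therefore hold some that could not move, and counts and medians of members draw on them. The value table nearly repeats the scanner-processed ratios, so the alternatives are not all separate checks. No value past 2-fold changed sign. The cause of the moves was not tested. No replicate could be left out, as each group is 1 pool. No paired analysis was possible because each group has 1 pool. With centring on all spots the members at least 2-fold apart numbered 1 fed, 5 fasted and 1 in WT fasting, where 27.3%, 7.8% and 3.87% of all genes were 2-fold apart. The NF-κB list then had 5 fed and 3 fasted, and the other chemokines 1 fed. The interferon gamma list had 0 fed and 1 in the difference of ratios, where 1.68% of all genes were 2-fold apart. With centring on spots well above background members numbered 1 fasted and 1 in WT fasting (all genes 1.18% and 3.8%). The NF-κB list had 2 fasted, 2 in KO fasting and 2 in the difference (all genes 1.18%, 5.31% and 1.64%). With scanner-processed signals members numbered 4 fasted and 6 in WT fasting (all genes 1.57% and 7.68%). All genes were at 1.53% fed, 9% in KO fasting and 3.02% in the difference. The NF-κB list then had 1 fed, 2 fasted, 4 in KO fasting and 3 in the difference. The interferon gamma list had 8 fed, 4 in WT fasting and 5 in the difference, and the receptors 1 fed and 4 in KO fasting. With an offset of 16 members numbered 4 in WT fasting (all genes 5.14%). The NF-κB list had 2 fasted, 2 in KO fasting and 2 in the difference (all genes 1.04%, 5.86% and 1.73%). The interferon gamma list had 4 fed (all genes 0.765%). Without normalization between arrays members numbered 6 in KO fasting (all genes 10.6%), the NF-κB list had 4, the receptors 1 and the interferon gamma list 3 there and 1 in WT fasting. With the authors' value table members numbered 4 fasted (all genes 1.59%). The NF-κB list then had 1 fed, 2 fasted and 3 in the difference, the interferon gamma list 8 fed and 5 in the difference, and the receptors 1 fed. All genes were then at 1.54% fed and 3.04% in the difference. Between 39.8 and 45.8 percent of gene spots were well above background, which limits the dim chemokines.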
